A study of Homo sapiens with 8 samples.

Results

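The 10 genes examined here encode ABC (ATP-binding cassette) export pumps of drugs and lipids: ABCB1, ABCC1, ABCC2, ABCC3, ABCC4, ABCC5, ABCG2, ABCA1, ABCG1 and ABCB6. They were chosen by gene symbol from the table of counts per gene, and all 10 were found among its 35394 rows. The libraries came from HCT116, a human colorectal cancer cell line that the labels describe as epithelial cells with a ras mutation. Of the 8 poly(A) RNA libraries, 4 came from cells exposed to PZH for 24 h and 4 from cells given DMSO, the solvent control. PZH stands for Pien Tze Huang, a compound remedy of Chinese medicine. The sources used here do not give its dose, the time in DMSO or the origin of the replicates, so p-values measure only the spread between these libraries, which may be technical. Both groups are the same single cell line. All 10 genes passed the filter on low counts and were tested, ABCB6 only through its PZH libraries.

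ABC pumps are membrane proteins that bind and hydrolyse ATP to move substrates across a membrane. ABCB1 (P-glycoprotein), ABCG2 (breast cancer resistance protein) and the ABCC or MRP proteins (multidrug resistance proteins) export drugs, and the MRPs also export conjugates of glutathione, glucuronide and sulfate. In intestinal epithelium ABCB1, ABCG2 and ABCC2 face the lumen, whereas ABCC3 and ABCC1 lie on the basolateral side. ABCA1 and ABCG1 pass cholesterol and phospholipid to acceptors of the high-density lipoprotein pathway and are classical targets of the oxysterol receptor LXR. ABCB6 moves porphyrins, the precursors of heme.

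The bases upstream of 4 of these genes are shown because 2 of the genes rose and 2 fell, as described below. The sequences are from RefSeq (GRCh38.p14) and cover the 250 bases before an annotated start, 5′ to 3′ on the gene's strand. Of the 10 genes, 7 had at least 1 such window in the table used, and ABCC1, ABCC3 and ABCG1 are only named here. Capitals mark matches, on either strand, to the antioxidant response element (TGACNNNGC), the AP-1 site (TGANTCA), the inverted CCAAT box (ATTGG), the GC box (GGGCGG) and the E-box (CACGTG). Adjacent or overlapping matches run together. For ABCB1, which has 2 windows, the one at the downstream start is shown.
ABCB1 (chr7:87600885-87601134, minus strand): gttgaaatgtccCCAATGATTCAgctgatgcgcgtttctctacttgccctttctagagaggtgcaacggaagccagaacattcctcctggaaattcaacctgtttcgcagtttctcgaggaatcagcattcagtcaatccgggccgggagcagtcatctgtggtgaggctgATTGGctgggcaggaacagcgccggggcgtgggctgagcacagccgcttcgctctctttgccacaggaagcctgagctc
ABCB6 (chr2:219218959-219219208, minus strand): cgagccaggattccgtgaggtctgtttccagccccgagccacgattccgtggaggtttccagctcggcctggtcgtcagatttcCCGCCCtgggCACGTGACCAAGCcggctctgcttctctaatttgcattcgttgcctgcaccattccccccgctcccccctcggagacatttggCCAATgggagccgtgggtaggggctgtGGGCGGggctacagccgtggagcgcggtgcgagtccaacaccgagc
ABCC2 (chr10:99782390-99782639, plus strand): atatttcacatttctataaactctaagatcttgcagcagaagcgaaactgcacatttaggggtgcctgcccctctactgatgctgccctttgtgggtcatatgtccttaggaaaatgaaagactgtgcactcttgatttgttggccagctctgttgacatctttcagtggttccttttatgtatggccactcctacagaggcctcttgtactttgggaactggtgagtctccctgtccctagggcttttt
ABCC4 (chr13:95301452-95301701, minus strand): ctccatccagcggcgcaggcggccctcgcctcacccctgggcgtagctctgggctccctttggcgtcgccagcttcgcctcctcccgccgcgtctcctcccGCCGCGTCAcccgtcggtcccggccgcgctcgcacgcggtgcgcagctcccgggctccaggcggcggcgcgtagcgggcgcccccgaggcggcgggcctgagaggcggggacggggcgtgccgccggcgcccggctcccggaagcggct

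The ABCB1 window held 2 CCAAT boxes, at -238 and -79 from the start, and an AP-1 site at -234 that shares a base with the first of them. The window at the upstream start of ABCB1 held no match to any motif searched. The ABCB6 window held 2 GC boxes, an E-box at -156 that overlaps an antioxidant response element at -152, and a CCAAT box at -73. The ABCC4 window held 1 antioxidant response element, at -149, and 80.4% of its bases were G or C, against 45.6% for ABCC2, whose window held none of the motifs searched. Over the 7 genes with a window, the antioxidant response element was present for 2, the AP-1 site for 1, the CCAAT box for 2, the GC box for 4 and the E-box for 3. A gene was counted where any of its windows matched, and ABCG2 has 5 windows, some of them overlapping. Counted in the same way over 27305 genes, 13.2%, 8.06%, 37%, 46.2% and 7.73% held these motifs. The strict LXR motif (DR4, AGGTCA repeated with a gap of 4 bases), the ATF4 composite site (TGATGNAAT) and the TCF site (CTTTGAT) were found in none of the windows of these 7 genes, and for 0.0183%, 1.09% and 2.75% of all genes. The strict LXR form is so rare that its absence from 7 genes was likely beforehand. Looser LXR repeats, which differ from it in some bases, were not searched, so the result does not cover them. The xenobiotic response core (GCGTG) was present for 3 of the 7 and for 36.2% of all genes.

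PZH-treated cells held a different mix of pump transcripts from control cells. ABCB1, ABCC3, ABCB6 and ABCG2 were called higher in PZH, and ABCC1, ABCC2, ABCC4, ABCC5 and ABCA1 were called lower, while ABCG1 did not pass the test. Calls are by edgeR's quasi-likelihood test at an adjusted p (Benjamini-Hochberg) under 0.05 over all 15006 genes tested. That is 4 of 10 higher and 5 of 10 lower, where 39.3% of all genes tested were called higher and 40.9% lower, so by count the pumps lay near the background. A change of at least 2-fold was called upward for 3 pumps and downward for 2, where the shares over all genes were 15.8% and 18.9%. The median log2 fold change of the pumps was -0.34, and that of all genes tested was -0.02. The median of the pumps was -0.60 without scaling factors and -0.20 with the GC trend removed. The 2 groups did not overlap for 7 of the 10, where 75% of all genes tested did not overlap in either direction. ABCB6 is in both upward counts and among the 7, although it passed the low-count filter only through PZH, where it is high.

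**Figure D1:**
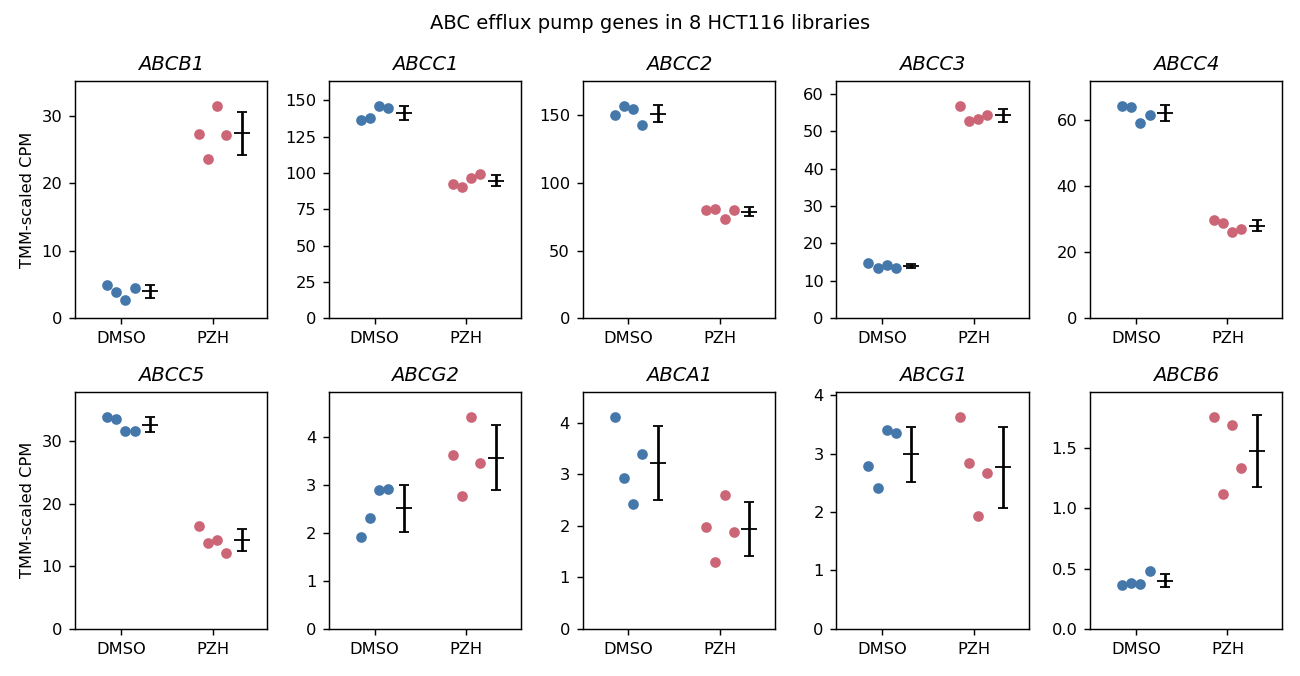
TMM-scaled CPM (counts relative to library size, vertical axis from 0) of the 10 ABC genes in 4 DMSO libraries (blue) and 4 PZH libraries (red), in replicate order from left to right, with the mean and SD beside each group. ABCB1, ABCC3 and ABCB6 stand clear above the controls, ABCC1, ABCC2, ABCC4 and ABCC5 clear below, and the groups overlap for ABCG2, ABCA1 and ABCG1.

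The libraries held between 18144117 and 19917571 counts, and 3 counts correspond to 0.151 to 0.165 CPM. Levels below are CPM after TMM scaling, which adjusts library sizes so that most genes are centred, and are given as mean ± SD over 4 libraries. Without the scaling factors the median of all genes moved by -0.26 on the log2 scale, so directions are relative to the scaling. HCT116 markers were checked on 8 epithelial genes, of which EPCAM, CDH1 and 3 keratins were abundant, and VIL1 was near 0, with 4 counts over the DMSO and 1 over the PZH libraries. The summed epithelial markers were 3935 to 4009 CPM (unscaled) in DMSO and 2706 to 3027 in PZH, but the markers went in different directions. After scaling, KRT8 fell 1.91-fold from 1880 ± 18.3 to 985 ± 85.6 CPM and CDX2 fell 1.45-fold, whereas CDH1 rose 3.12-fold and CLDN7 3.97-fold. EPCAM was called higher by a small margin, 1.08-fold (277 ± 10.1 and 299 ± 10.2 CPM, edgeR adjusted p = 0.0352), and KRT18 and KRT19 did not pass. Markers of endothelial, immune and erythroid cells summed to at most 3.51 CPM in any library. The 6 fibroblast markers summed to 11.7 to 14.3 CPM in DMSO and 17.5 to 21.3 in PZH, nearly all of it COL1A1, with COL1A2 at 0 counts in every library, and the part of this difference in the results was not tested. In bulk RNA, fewer cells with a transcript and less of it per cell cannot be told apart.

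ABCB1 showed the largest change of the 10. In the DMSO libraries it stood at 4.93, 3.83, 2.75 and 4.45 CPM, and in the PZH libraries at 27.3, 23.6, 31.4 and 27.2 CPM. The groups lay far apart, with the lowest PZH library well above the highest control. ABCB1 rose 6.85-fold between means of 3.99 ± 0.942 and 27.4 ± 3.16 CPM (log2 fold change 2.78 ± 0.13 SE, adjusted p = 5.17e-15), and 4.20% of all genes tested had a larger change in either direction. The gene lies at chr7:87503633-87713323 on the minus strand (GRCh38, GENCODE 29). RUNDC3B overlaps it on the opposite strand without sharing exon bases and went from 586 to 850 summed counts. The neighbouring phospholipid pump ABCB4, the close paralogue of ABCB1, had 2 counts over the DMSO and 1 over the PZH libraries.

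ABCG2, the other luminal drug pump of broad specificity, was low in both groups. It stood at 1.92, 2.32, 2.89 and 2.92 CPM in DMSO and at 3.62, 2.78, 4.41 and 3.45 CPM in PZH. The groups overlap, because PZH replicate 2 lies below 2 of the controls. The difference passed the test (log2 fold change 0.51 ± 0.20 SE, 1.42-fold, adjusted p = 0.0248). The call was lost without DMSO replicate 1 (adjusted p = 0.0977), without DMSO replicate 2 (0.0627) and without PZH replicate 3 (0.0950), and also with upper quartile factors (0.0516), without scaling factors (0.262, at a log2 fold change of 0.25) and with the GC trend removed (0.0699).

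The 5 ABCC genes, which encode MRP1 to MRP5, parted into 1 that rose and 4 that fell. Together they held 96.4% to 97.2% of the summed CPM of the 10 pumps in the DMSO libraries and 86.3% to 89.4% in the PZH libraries. Their sum went from 401 ± 5.50 to 270 ± 5.36 CPM, and that of all 10 pumps from 414 ± 4.14 to 307 ± 6.44 CPM. The share of ABCB1 in that sum went from 0.965 ± 0.233% to 8.91 ± 0.975% and that of ABCC3 from 3.37 ± 0.156% to 17.7 ± 0.267%.

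ABCC3, the basolateral exporter of glucuronides and bile salts, was the ABCC gene that rose. It stood at 14.8, 13.4, 14.1 and 13.5 CPM in DMSO and at 56.7, 52.8, 53.4 and 54.4 CPM in PZH. Both groups were tight, with SDs of 4.70% and 3.15% of the mean. ABCC3 rose 3.89-fold (log2 fold change 1.96 ± 0.06 SE, adjusted p = 6.24e-18) and had the smallest p of the 10. It lies at chr17:50634777-50692252 on the plus strand (GRCh38, GENCODE 29).

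ABCC2, the luminal counterpart that exports conjugated bile pigments and glutathione conjugates, went the other way. It stood at 150.5, 156.7, 155.1 and 143 CPM in DMSO and at 79.9, 81.04, 73.8 and 80.2 CPM in PZH. ABCC2 fell 1.92-fold between means of 151 ± 6.16 and 78.7 ± 3.34 CPM (log2 fold change -0.94 ± 0.05 SE, adjusted p = 2.24e-14). Within a library the ratio of ABCC2 to ABCC3 counts does not depend on scaling. That ratio was 10.1, 11.7, 11.0 and 10.6 in the DMSO libraries and 1.41, 1.54, 1.38 and 1.47 in the PZH libraries, with no overlap.

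ABCC1, which exports glutathione, its conjugates and the leukotriene LTC4, had the smallest change of the ABCC genes. It stood at 136 to 146 CPM in DMSO and at 90.6 to 99.5 CPM in PZH, and fell 1.49-fold between means of 141 ± 4.75 and 94.6 ± 3.99 CPM (log2 fold change -0.58 ± 0.05 SE, adjusted p = 1.04e-10). Of all genes tested, 57.3% had a larger change. ABCC4, an exporter of cyclic nucleotides and prostaglandins, stood at 64.05, 63.8, 59.05 and 61.3 CPM in DMSO and at 29.8, 28.7, 26.2 and 27.0 CPM in PZH. It fell 2.22-fold (log2 fold change -1.15 ± 0.06 SE, adjusted p = 2.44e-14). ABCC5, which exports cyclic nucleotides and nucleotide analogues, stood at 33.8, 33.4, 31.6 and 31.6 CPM in DMSO and at 16.5, 13.7, 14.3 and 12.2 CPM in PZH. The antisense gene ABCC5-AS1 had 1 count over the DMSO and 6 over the PZH libraries. ABCC5 fell 2.30-fold (log2 fold change -1.20 ± 0.08 SE, adjusted p = 5.52e-12), the largest fall of the 10, though within the errors of ABCC4. With the GC trend removed the order reversed, at -1.19 for ABCC5 and -1.22 for ABCC4. The SD of ABCC5 was 3.65% of the mean in DMSO and 12.6% in PZH.

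**Figure D2:**
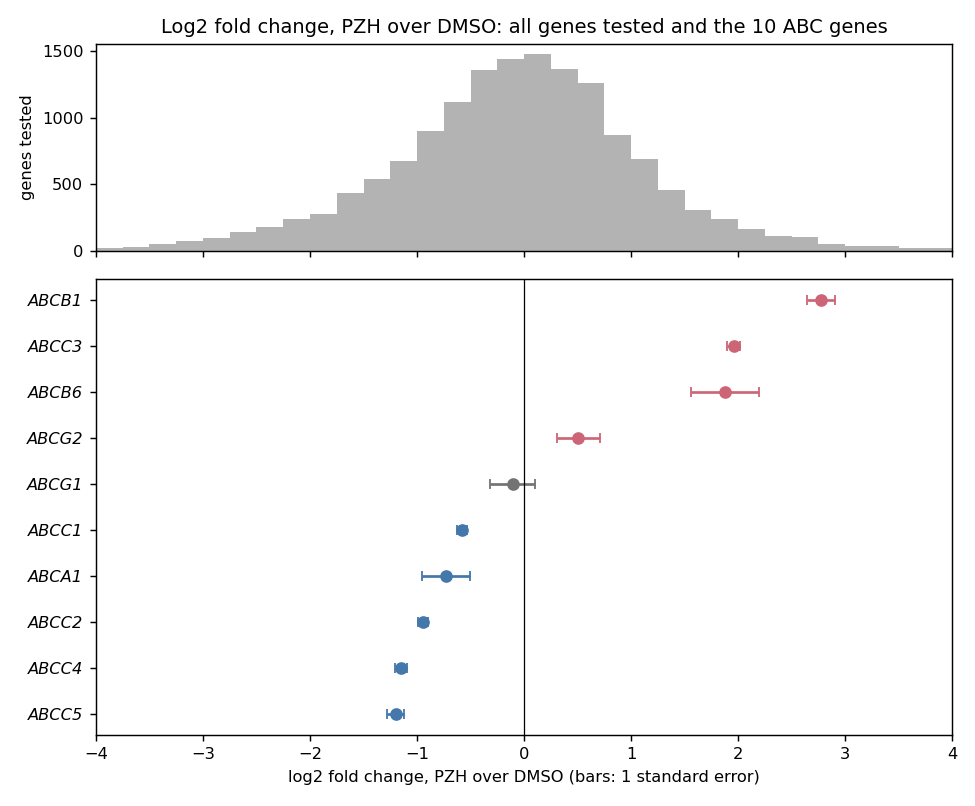
Log2 fold change of PZH over DMSO for the 10 ABC genes (points, with bars of 1 standard error) under a histogram of the same measure for all 15006 genes tested. Red genes were called higher, blue lower and grey not called, and the axis leaves out 189 genes with a change beyond 4 in either direction. ABCB1, ABCC3 and ABCB6 lie in the upper tail, and the 5 genes that fell lie within the broad lower flank.

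The lipid pumps ABCA1 and ABCG1 were both low. ABCA1 stood at 4.11, 2.94, 2.42 and 3.39 CPM in DMSO and at 1.98, 1.3, 2.60 and 1.88 CPM in PZH. PZH replicate 3 lies above DMSO replicate 3, and the other PZH libraries lie below all controls. ABCA1 fell 1.66-fold between means of 3.21 ± 0.716 and 1.94 ± 0.532 CPM (log2 fold change -0.73 ± 0.23 SE, adjusted p = 0.00579). ABCG1 stood at 2.79, 2.41, 3.40 and 3.35 CPM in DMSO and at 3.62, 2.84, 1.93 and 2.67 CPM in PZH, with full overlap. Its log2 fold change of -0.11 ± 0.21 SE did not pass (adjusted p = 0.641), and at 32 to 73 counts per library a change of about the size of its error was not detectable.

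ABCB6 had the fewest counts. The DMSO libraries held 8, 8, 8 and 10 counts and the PZH libraries 31, 19, 28 and 22, which is 0.399 ± 0.0532 and 1.48 ± 0.30 CPM. Each PZH library held more than any control. The controls, at 0.402 to 0.518 CPM unscaled, did not meet the filter, so ABCB6 was tested only because PZH was high. Its call and this separation are therefore not independent of the filter. ABCB6 rose 3.67-fold (log2 fold change 1.87 ± 0.32 SE, adjusted p = 1.28e-05). Its level is uncertain, because the annotated read-through gene AC068946.2 on the same strand shares 2864 of the 5234 exon bases of ABCB6 (54.7%) and 38.8% of those of its neighbour ATG9A, and the sources used here do not say how reads in shared exons were assigned. The read-through had 5 counts over the DMSO and 12 over the PZH libraries.

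To compare pumps with each other, CPM was divided by the length of all exons of a gene in GENCODE 29, which can exceed the transcripts that HCT116 uses. In DMSO, ABCC2 at 19.3 ± 0.786 and ABCC1 at 18.6 ± 0.627 CPM per kb headed the order and overlapped. They were followed by ABCC4 (7.19 ± 0.271), ABCC5 (2.85 ± 0.104), ABCC3 (1.45 ± 0.0682) and ABCB1 (0.687 ± 0.162 CPM per kb). ABCB1 overlapped ABCG2 (0.498 ± 0.0954), and ABCG2 overlapped ABCG1 (0.488 ± 0.0771), with ABCA1 (0.283 ± 0.0631) and ABCB6 (0.0762 ± 0.0102 CPM per kb) below. In PZH the order began with ABCC1 (12.5 ± 0.527), ABCC2 (10.05 ± 0.427), ABCC3 (5.65 ± 0.178) and ABCB1 (4.71 ± 0.544 CPM per kb), none of which overlapped its neighbour. ABCC3 and ABCB1 thus stood above ABCC4 (3.23 ± 0.193) and ABCC5 (1.24 ± 0.156 CPM per kb), the reverse of their order in DMSO. ABCG2, ABCG1, ABCB6 and ABCA1 closed the order between 0.707 and 0.171 CPM per kb, each overlapping the next.

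**Figure D3:**
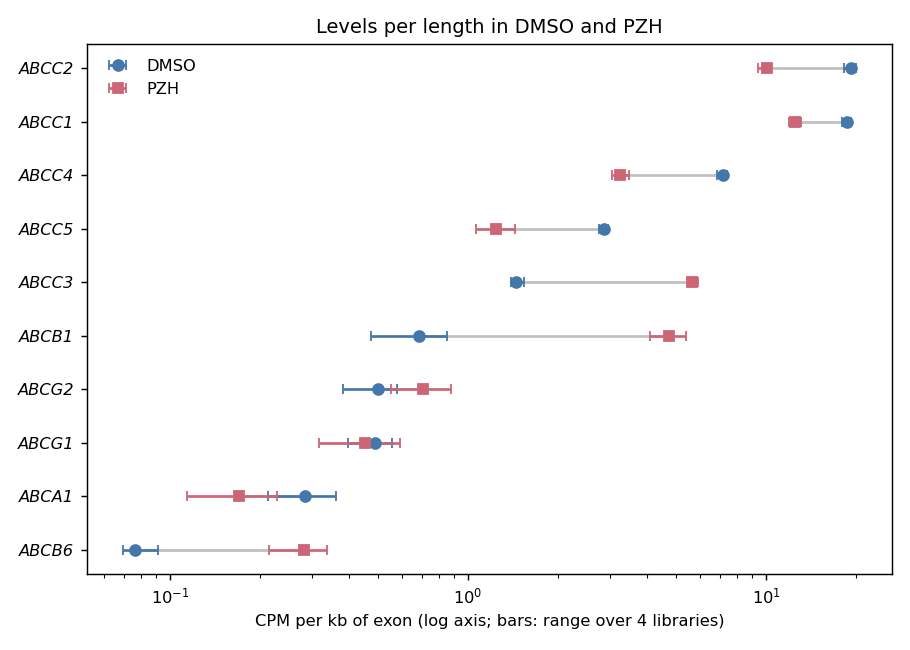
Mean level per length (CPM per kb of exon, log axis) of each ABC gene in DMSO (blue circles) and PZH (red squares), with bars for the range over 4 libraries and genes ordered by their DMSO level. ABCC3 and ABCB1 pass ABCC4 and ABCC5 in PZH.

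Over the 8 libraries, the log2 CPM of ABCB1 was most like that of SNHG12, PISD and SH3BP5 (Pearson r = 0.998, 0.998 and 0.997), out of 11059 genes compared. That of ABCC5 was most like MPP7, CCDC138 and ALMS1 (r = 0.999, 0.999 and 0.998). The 8 libraries span both groups, so each r includes the difference between them.

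Among the other 38 genes of the ABC family, 22 passed the filter. Of these, 3 were called higher and 13 lower (median log2 fold change -0.24), against 39.3% and 40.9% of all genes tested. Without scaling factors 1 was higher and 18 lower (median -0.50), and with the GC trend removed 3 were higher and 9 lower (median -0.05). The sterol-linked pump ABCA2 fell 6.19-fold from 102 ± 3.58 to 16.5 ± 1.39 CPM, mitochondrial ABCB10 fell 3.14-fold, the lysosomal peptide carrier ABCB9 fell 2.81-fold and the peroxisomal transporter ABCD3 fell 1.80-fold (edgeR adjusted p = 2.02e-20, 1.03e-14, 1.80e-09 and 6.22e-13). The translation factor ABCF1, a family member without membrane domains, did not pass, at 117 ± 0.645 and 117 ± 6.10 CPM, nor did its relative ABCF3, at 67.3 ± 0.460 and 63.0 ± 3.27 CPM. The retinal lipid pump ABCA4, named after its values were seen, had 15 counts over the DMSO and 129 over the PZH libraries. It is among the 3 called higher and passed the filter only through PZH, where it is high. ABCC6, among the 13 lower, passed only through DMSO (2.23 ± 0.219 and 0.590 ± 0.144 CPM).

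The other LXR targets went in both directions. Of 11 tested outside the ABC family, 2 were called higher and 5 lower (median log2 fold change -0.14), or 2 and 7 without scaling factors. In the main comparison 39.3% of all genes tested were called higher and 40.9% lower. Phospholipid transfer protein PLTP rose 5.86-fold from 3.89 ± 0.771 to 22.8 ± 1.25 CPM. The lipogenic genes FASN, SREBF1 and SCD fell 2.03-fold, 1.91-fold and 1.38-fold. The phospholipid enzyme LPCAT3 (22.0 ± 0.927 and 20.4 ± 0.926 CPM) and TTC39B (17.7 ± 0.656 and 16.1 ± 1.86 CPM) did not pass. The LXR genes themselves, named after their values were seen, differed in direction: NR1H2 (LXR beta) rose 1.88-fold and NR1H3 (LXR alpha) fell 1.34-fold (edgeR adjusted p = 2.29e-11 and 0.00142). NR1H3 is on the target list too, among the 5 called lower, and is counted again among the 5 regulators called lower below.

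Genes for regulators of ABC transcription were called higher in 15 of 21 cases and lower in 5 (median log2 fold change 0.34). The shares over all genes tested were 39.3% and 40.9%. Without scaling factors 10 regulators were higher and 7 lower, and with the GC trend removed 16 and 3. Most of them act on ABC promoters, but KEAP1, called lower, is a regulator of NRF2. CEBPB, a CCAAT/enhancer-binding protein, rose 5.35-fold from 27.4 ± 1.73 to 147 ± 9.19 CPM. The antioxidant regulator NFE2L2 (NRF2) stood 2.55-fold and PPARG 2.41-fold higher, and NFYA, a subunit of the factor that binds CCAAT boxes, rose 2.02-fold. The aryl hydrocarbon receptor AHR did not pass, at 25.7 ± 0.565 and 26.9 ± 0.806 CPM. The xenobiotic receptor NR1I2 (PXR), named after its values were seen, had 9 counts over the DMSO and 0 over the PZH libraries and was not tested.

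Genes that hand cholesterol to the efflux pumps or store it were 5 higher and 5 lower of 11 tested (median log2 fold change -0.02). Of all genes tested, 39.3% were called higher and 40.9% lower. NPC1, which moves cholesterol out of lysosomes, rose 4.58-fold from 51.6 ± 1.13 to 236 ± 8.38 CPM, and the sterol carrier OSBP rose 2.14-fold. The caveolar protein CAV1 and the lipoprotein receptor SCARB1 fell 3.15-fold and 1.97-fold. The cholesterol esterifying enzyme SOAT1 did not pass, at 54.6 ± 2.89 and 53.7 ± 1.49 CPM.

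Genes listed for glutathione, glucuronide and sulfate conjugation were called lower in 11 of 18 cases and higher in 4 (median log2 fold change -0.68). Over all genes tested, 40.9% were called lower and 39.3% higher, the background for both lists of this paragraph. No UGT1A or UGT2B gene on the list was tested. UGT1A1 and UGT1A10 were absent from the counts, and UGT1A6 and UGT2B7 had 0 counts in every library. As the assignment of reads in shared exons is not given, 0 counts need not mean no expression. UGT8, counted as lower, is of another UGT family. The glutathione transferases GSTK1 and GSTP1 fell 2.37-fold and 1.93-fold, GSTP1 from 333 ± 11.2 to 172 ± 18.8 CPM. Of the sulfate donor enzymes, PAPSS1 fell 1.68-fold, whereas PAPSS2, named after its values were seen, rose 1.57-fold. UGDH, which makes the donor of glucuronide, rose 2.40-fold from 79.4 ± 4.67 to 190 ± 12.4 CPM. GSTO1 (99.03 ± 1.20 and 95.6 ± 4.84 CPM) and GSTZ1 (16.9 ± 1.16 and 17.4 ± 2.74 CPM) did not pass. Of the uptake and other drug transporters, 7 of 19 were higher and 6 lower (median log2 fold change 0.00), or 6 and 11 without scaling factors (median -0.26) and 9 and 6 with the GC trend removed (median 0.20). The folate carrier SLC19A1 and the organic anion carrier SLCO4A1 fell 2.96-fold and 2.80-fold, and the copper importer SLC31A1 and the organic cation carrier SLC22A18 rose 1.91-fold and 2.58-fold. The vault protein MVP (77.6 ± 3.32 and 77.7 ± 1.97 CPM) did not pass. SLC47A1 and SLC22A4, among the 7 called higher, passed the filter only through PZH, with 0.364 ± 0.134 and 0.455 ± 0.363 CPM in DMSO.

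Scaffolds that hold ABC pumps at the membrane were called higher in 2 of 7 cases and lower in 4 (median log2 fold change -0.12). For all genes tested the shares were 39.3% and 40.9%. The PDZ scaffolds SLC9A3R1 and SLC9A3R2 fell 2.86-fold and 2.57-fold, and the motor MYO5B and the actin linker MSN rose 2.73-fold and 1.77-fold. Ezrin (EZR) did not pass and spread more in PZH, at 1472 ± 9.20 and 1450.5 ± 183 CPM. All 14 genes of heme synthesis and porphyrin transport, ABCB10 among them, were called, 6 higher and 8 lower (median log2 fold change -0.99), or 3 and 8 without scaling factors. Most genes tested were called as well, 39.3% higher and 40.9% lower. The first enzyme of the pathway, ALAS1, rose 2.81-fold, while CPOX, which acts on coproporphyrinogen, and UROS, which makes uroporphyrinogen, fell 6.96-fold and 4.13-fold, CPOX from 595 ± 10.3 to 85.4 ± 6.78 CPM.

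**Figure D4:**
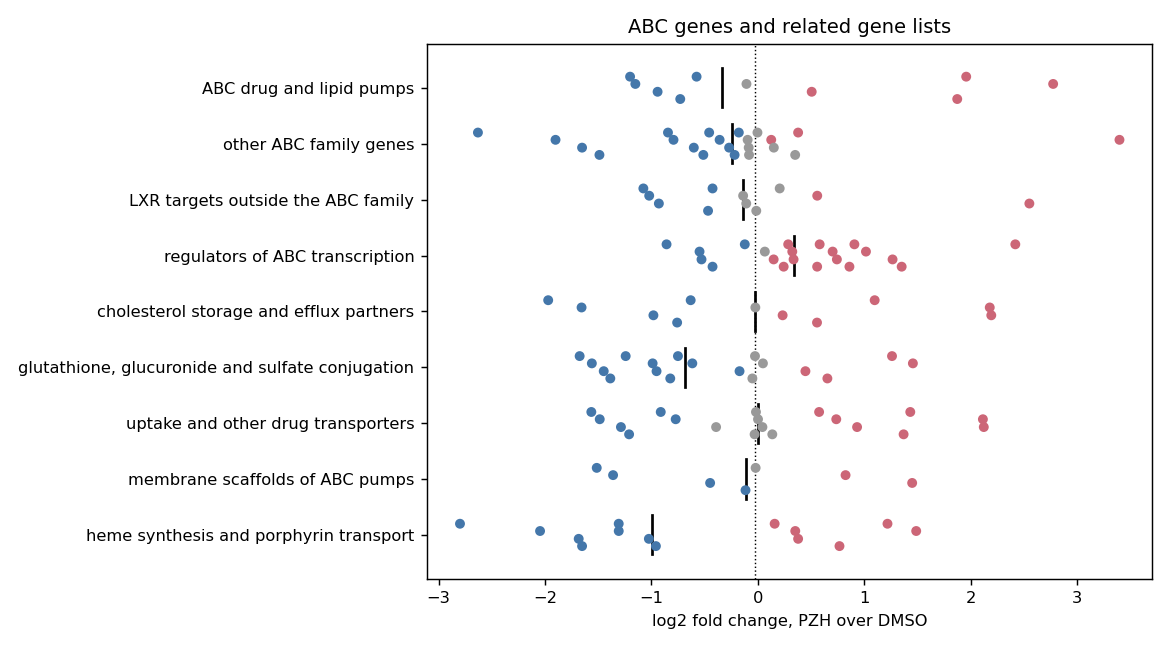
Log2 fold change of PZH over DMSO for every tested gene of the ABC pumps and of 8 related lists. Each point is 1 gene (red called higher, blue called lower, grey not called), black bars are list medians, and the dotted line is the median of all genes tested, -0.02. The regulators lie mostly to the right of that line, and the conjugation enzymes mostly to the left.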

How the data were processed

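Per the labels' protocols, poly(A) RNA of 8 HCT116 samples was enriched from total RNA and made into libraries with an NEB kit. The submitters' processing notes list, with no roles, DESeq 1.28.0, StringTie 1.3.3b, HISAT2 2.1.0 and FastQC 0.11.5. The sources used here do not give the build, annotation or strand setting. The authors deposited raw counts as 1 table of gene symbols by libraries, and 0 columns belonged to no sample. Genes were kept by filterByExpr (minimum count 10, minimum total 15), scaled with TMM and tested with edgeR's quasi-likelihood F test, two-sided, with Benjamini-Hochberg adjustment over all 15006 genes tested and a threshold of 0.05. The filter needs 4 libraries, so a gene can pass through 1 group alone, as ABCB6 and ABCA4 did through PZH. Standard errors were computed as |log2 fold change| over the root of F. Replicates differed by more than counting noise in every pair (chi-square per degree of freedom 2.39 to 12.3), so none was treated as a duplicate. PCR copies are not independent molecules, so a floor reflects counting error alone.

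The genes and lists were chosen with earlier results of these data known. The rule for genes of the 8 related lists was up to 4 called members with the smallest p and the 2 most abundant members not called, which gave 42 genes, of which 1 is not reported here. The genes most like a pump had a mean log2 CPM of at least 2. Symbols were matched to GENCODE 29 (98.8%) for exon lengths, positions and GC. The fit was tested on simulated data. Alternatives were DESeq2, limma-voom, other factors (upper quartile, RLE) or none, low-count filtering switched off or set to CPM 1 in 4 libraries, the replicate number as a block, leaving out the 10 most abundant genes, leaving out each library and, chosen after seeing the data, removing each library's GC trend. Tools were DESeq2 1.42.0, edgeR 4.0.16, Python 3.11.15, limma 3.58.1 and R 4.3.3.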

Additional observations from a re-analysis of the deposited data

Results flagged for a closer look

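Among the 20 groups of 4 libraries formed by the 10 pumps and both treatments, 2 held a library set far apart from the rest by Dixon's test (critical value 0.829), and chance alone gives about 1 in 20. ABCC2 stood at 73.77 CPM in PZH replicate 3, below the other PZH libraries, which lay within 79.9 to 81.04 CPM. ABCB6 stood at 0.478 CPM in DMSO replicate 4, which held 10 counts where the other DMSO libraries held 8 each.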

How the results depend on the processing

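Over 18 alternatives, ABCB1, ABCC3, ABCB6, ABCC1, ABCC2, ABCC4, ABCC5 and ABCA1 kept their direction and their call. Their log2 fold changes ranged over 2.52 to 2.89, 1.70 to 2.14, 1.62 to 2.04, -0.84 to -0.42, -1.20 to -0.90, -1.41 to -1.11, -1.46 to -1.13 and -0.99 to -0.57. ABCG2 lost its call under 6 alternatives (log2 fold change 0.25 to 0.61 over all of them). ABCG1 was called under none, with values from -0.36 to 0.04. The number of other ABC family genes called higher was 3, but 1 without scaling factors and 5 without a filter on low counts; the cause was not tested. Without scaling factors 36.8% of all calls were higher, against 49.0% in the main comparison. Libraries of the same replicate number shared no common deviation from the group means (correlation 0.000736 to 0.0113). This cannot show whether they were made in pairs, because pairs with little shared effect would look the same. The replicate block left 4 pumps called higher and 5 lower. ABCB6, with 8 to 31 counts per library, and ABCA1, ABCG1 and ABCG2, with 22 to 90, are the members whose precision the depth limits most.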
